A study of Rattus norvegicus with 8 samples.

Results

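The proteasome subunit genes were followed in cultured heart muscle cells of newborn rats with and without an excess of HectD3, a ubiquitin ligase that attaches ubiquitin to other proteins. The genes were chosen by symbol alone, as those named Psma, Psmc or Psmd followed by a digit together with Psmb1, Psmb2, Psmb3 and Psmb4. This rule took 32 of the 12784 genes in the deposited table. They comprised 7 alpha subunits and 4 beta subunits of the core particle, 6 ATPase subunits and 11 non-ATPase subunits of the regulatory particle, 3 assembly factors (Psmd5, Psmd9 and Psmd10) and Psmc3ip, a DNA recombination factor that is not a proteasome subunit. The 28 subunits and the other 4 genes were therefore described separately.

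RNA-seq was measured in 8 libraries of neonatal rat ventricular cardiomyocytes (NRVCMs). All cells came from ventricles of newborn rats and were cultured for 24 h in medium with serum. They were then transduced with an adenovirus for 72 h in serum-depleted medium. The virus carried LacZ, a bacterial enzyme that served as the control, in 4 libraries and HectD3 in the other 4. The rats are called Wistar in the study's methods and Sprague Dawley in its reporting summary, and the labels give no strain or sex. The submitters call the libraries of a group biological replicates without saying whether they were separate isolations, so each p-value measures the spread between these libraries. Levels are given in FPKM, a read abundance scaled for transcript length and library size, so that levels of different genes can be set side by side.

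The proteasome degrades proteins that carry ubiquitin. Its core particle is a barrel of alpha rings, which form the gate, and beta rings, of which some subunits cut proteins. Its regulatory particle caps the barrel: a ring of ATPases unfolds the substrate and opens the gate, while the non-ATPase subunits bind ubiquitin chains and remove them. Heart muscle relies on this machine to turn over damaged contractile proteins. Genes of its subunits are known to be controlled together by the transcription factor Nfe2l1 through antioxidant response elements, and by NF-Y and factors of the ETS family at their promoters.

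Promoters are shown first for members at an unadjusted p under 0.05 between the groups or with no overlap of the groups, as far as the table held a window, which it did not for Psmd6. They are Psmb2 and Psmb3 of the beta ring, Psmc3 of the ATPase ring and Psmd13 of the non-ATPase part, with Psmd8, the subunit with the widest spread between libraries, added after its values were seen. Each run holds 250 bases before and 50 bases from the annotated start, read on the strand of the gene from RefSeq (assembly GRCr8), and a window was found for 28 of the 32 members. Capitals mark matches, on either strand, to TGACNNNGC, the core of the antioxidant response element, to CCAAT, the box that NF-Y binds, and to CCGGAA, a core bound by the ETS family.
Psmb2 (chr5:144254808-144255107, plus strand): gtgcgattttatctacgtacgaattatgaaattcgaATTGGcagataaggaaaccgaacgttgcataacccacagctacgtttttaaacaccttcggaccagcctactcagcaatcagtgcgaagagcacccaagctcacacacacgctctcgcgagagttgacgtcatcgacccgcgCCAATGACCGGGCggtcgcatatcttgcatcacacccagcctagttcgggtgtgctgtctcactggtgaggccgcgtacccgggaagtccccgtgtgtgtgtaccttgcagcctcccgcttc
Psmb3 (chr10:83193537-83193836, plus strand): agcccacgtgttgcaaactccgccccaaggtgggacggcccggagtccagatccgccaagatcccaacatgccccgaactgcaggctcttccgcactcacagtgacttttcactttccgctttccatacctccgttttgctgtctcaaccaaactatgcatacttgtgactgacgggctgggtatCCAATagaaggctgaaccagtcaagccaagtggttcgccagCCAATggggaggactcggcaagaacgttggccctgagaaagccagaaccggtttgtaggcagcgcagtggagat
Psmc3 (chr3:97487393-97487692, plus strand): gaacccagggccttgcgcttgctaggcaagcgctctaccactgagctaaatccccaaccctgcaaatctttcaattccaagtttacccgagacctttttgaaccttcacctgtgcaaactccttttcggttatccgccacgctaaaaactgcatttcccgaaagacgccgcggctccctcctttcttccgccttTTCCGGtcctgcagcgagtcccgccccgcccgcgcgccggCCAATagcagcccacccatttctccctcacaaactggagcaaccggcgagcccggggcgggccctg
Psmd13 (chr1:205393998-205394297, plus strand): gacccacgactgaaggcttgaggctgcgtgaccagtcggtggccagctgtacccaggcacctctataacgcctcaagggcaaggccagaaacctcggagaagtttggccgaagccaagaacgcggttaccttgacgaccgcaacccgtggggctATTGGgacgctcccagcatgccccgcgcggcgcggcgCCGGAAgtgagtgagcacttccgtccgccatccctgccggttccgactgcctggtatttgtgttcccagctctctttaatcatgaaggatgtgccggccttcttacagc
Psmd8 (chr1:93608640-93608939, minus strand): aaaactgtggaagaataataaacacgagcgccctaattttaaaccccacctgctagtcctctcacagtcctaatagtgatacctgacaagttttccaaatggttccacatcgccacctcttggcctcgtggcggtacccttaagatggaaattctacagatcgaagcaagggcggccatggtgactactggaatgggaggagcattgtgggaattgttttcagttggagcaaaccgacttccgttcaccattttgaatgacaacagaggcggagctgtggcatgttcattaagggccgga

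Psmb2 carried CCAAT at positions -72 to -68 before its start and TGACNNNGC at -68 to -60, so that these matches share 1 base, and a further CCAAT on the opposite strand at -214 to -210. Psmb3 carried CCAAT at -65 to -61 and at -24 to -20. In Psmc3, CCAAT lay at -16 to -12 and CCGGAA, on the opposite strand, at -56 to -51. The window of Psmd13 had CCGGAA at -59 to -54 and CCAAT, on the opposite strand, at -96 to -92, and that of Psmd8 had none of the motifs. Over the 24 subunits with a window, CCAAT was present in 13 (54.2%), against 37.9% of the 9176 windows of genes tested and 37.7% of all 27457 windows. CCGGAA was also present in 13 of 24 (54.2%), against 28.6% of the windows of genes tested and 15.8% of all windows. TGACNNNGC was present in 4 of 24 (16.7%), those of Psma3, Psmb2, Psmd1 and Psmd3, against 14.9% and 12.2%. These 3 motifs were taken from 10 that were looked at, and a match describes letters in the window, not binding.

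The HectD3 virus delivered its gene in every library that carries the HectD3 label. Delivery of LacZ was not read here. Hectd3 stood at 7.89, 7.86, 6.18 and 6.49 FPKM in LacZ 1 to 4 and at 546.6, 915.3, 590.0 and 161.1 FPKM in HectD3 1 to 4. The lowest HectD3 library, HectD3 4, was thus far above the highest LacZ library. The log2 difference was 5.86 (SE 0.44, adjusted p = 0.00292, limma with Benjamini-Hochberg adjustment), and an exact two-sided permutation test over the 70 assignments of libraries gave p = 0.0286, the smallest it can give with 4 libraries against 4. Hectd3 was the only gene of 12567 tested to pass an adjusted p of 0.05, which is 0.00796% of them. The libraries did not separate by virus alone: on the first principal component of all genes, which held 58.4% of the variance, LacZ 1, LacZ 2 and HectD3 4 lay at -40.76, -27.11 and -13.42 and the other 5 libraries between 9.01 and 18.81. Summed markers of cardiomyocytes ran from 14700 to 23100 FPKM in LacZ and from 16600 to 22300 FPKM in HectD3, with 10 of 11 in the table. Single markers of this list shifted in either direction in LacZ 1, LacZ 2 and HectD3 4. Actc1 stood at 3229, 3149 and 4853 FPKM there, against 7084 to 9411 FPKM in the other 5 libraries. Pln stood at 1371, 1348 and 1447 FPKM there, against 1068 to 1160 FPKM. Markers of smooth muscle, all 5 found, summed to 1570 to 3650 FPKM in LacZ and 1900 to 3220 FPKM in HectD3. The median log2 deviation of these markers from their 8-library means was lowest in LacZ 1 (-0.62), HectD3 4 (-0.48) and LacZ 2 (-0.09). For fibroblasts the 7 markers found of 8 summed to 1830 to 2110 and 1850 to 2080 FPKM, for endothelium the 6 of 7 to 72.1 to 91.0 and 81.3 to 98.9 FPKM, for macrophages the 6 of 8 to 312 to 408 and 349 to 441 FPKM, and for Schwann cells and neurons the 2 of 6 to 6.26 to 7.43 and 6.21 to 8.90 FPKM. No marker of any list was at 0 in every library. At an unadjusted p under 0.05 (limma), Myh6 (-0.18), Myh7 (-0.19) and Myh11 (-0.39) were lower with HectD3. Emcn (0.31), Adgre1 (0.29) and Tubb3 (0.49) were higher at that threshold. Of these, only Adgre1 overlapped between the groups, and no marker passed the adjusted threshold. Of all genes tested, 4.28% were lower and 2.87% higher at the unadjusted threshold. The part of these cells in the results was not tested, and in such bulk samples fewer cells of a type and less RNA per cell cannot be told apart.

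All 32 members were measured well above the floor of the test, a mean of 0.5 FPKM, and so all were tested. The 28 subunits had means from 48.6 FPKM (Psmd11) to 206.6 FPKM (Psmb4). Core subunits were the more abundant transcripts, and in LacZ 1 to 4 their median level was 134.6, 137.7, 183.4 and 170.9 FPKM, against 98.8, 97.0, 108.5 and 103.6 FPKM for the ATPases and 79.5, 78.3, 94.3 and 92.2 FPKM for the non-ATPase subunits. The assembly factors Psmd9, Psmd5 and Psmd10 and the recombination factor Psmc3ip all lay below the lowest subunit. The order of the 28 levels was nearly the same in all libraries, with Spearman's rho between any pair from 0.926 to 0.997, a description over genes that share the libraries and are not independent.

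**Figure D1:**
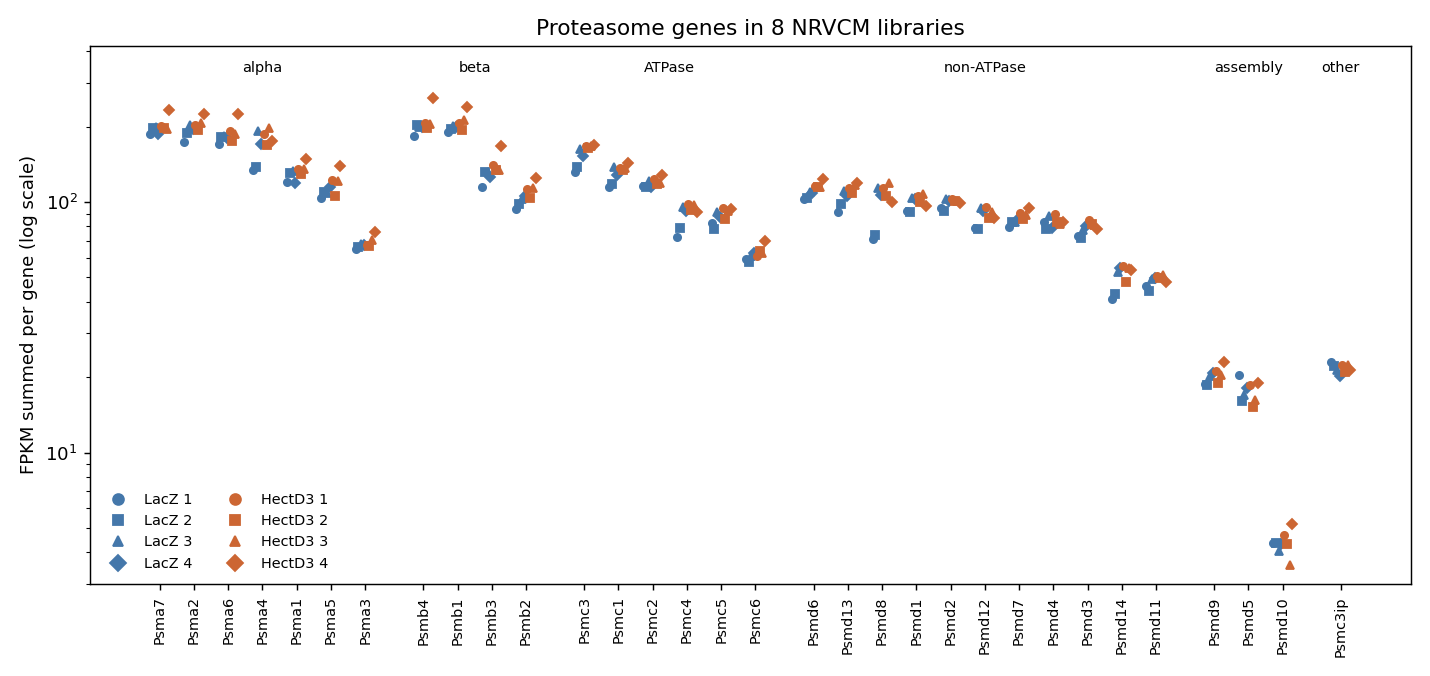
Level of each of the 32 genes in each library, as FPKM summed over the transcripts of a gene on a log axis, with genes grouped by class and ordered by mean level. Circles, squares, triangles and diamonds are replicates 1 to 4, blue for LacZ and orange for HectD3. HectD3 4 (orange diamonds) is the highest point of 10 of the 11 core subunits, and the 3 assembly factors and Psmc3ip lie below every subunit.

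No subunit passed the adjusted threshold between HectD3 and LacZ. The smallest adjusted p of any member was 0.677 (Psmc3) and the largest 0.973 (Psmc3ip). At an unadjusted p under 0.05, 4 of the 32 members were higher with HectD3 (Psmc3, Psmb2, Psmd6 and Psmd13), against 2.87% of all genes tested, and 0 were lower, against 4.28%. The HectD3 and LacZ libraries did not overlap in 3 of 32 members, all higher (Psmb3, Psmc3 and Psmd6), against 2.44% of all genes, and in 0 lower, against 2.81%. With FPKM as deposited, all 28 subunits had a positive log2 difference, from 0.04 (Psmd4) to 0.29 (Psmd8). Psmd4 turned to -0.004 when the libraries were scaled to the same sum (TPM). With the summed FPKM of each library as a covariate, which is not its read depth, 6 core and ATPase subunits turned negative. A positive difference was seen in 44.5% of all genes tested. The median over the 28 subunits was 0.12, a ratio of 1.08, beside a median of -0.02 over all genes, whose middle 50% ran from -0.15 to 0.08.

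The count at an unadjusted p under 0.05 changed when single libraries were left out. Fewer libraries also make a given difference harder to call, so a fall of this count does not show that it rests on 1 library. Without LacZ 1, LacZ 2, HectD3 1, HectD3 3 or HectD3 4, 0 members were higher at an unadjusted p under 0.05, against 1.76% to 2.79% of all genes at those settings, and without LacZ 3 there were 7, against 3.51%. Members higher with no overlap numbered 6 without LacZ 3, 7 without LacZ 4 and 12 without HectD3 2, against 4.12%, 3.69% and 3.88% of all genes. Leaving out a library cannot lower this count, so its rise does not show that it rests on 1 library. With LacZ 3 and 4 set against HectD3 1 to 3, so that the 3 libraries standing apart were left out, 0 members were higher at an unadjusted p under 0.05, against 5.16% of all genes, and 4 were higher with no overlap, against 16.5%. The class medians there were 0.03 for alpha, 0.05 for beta, 0.03 for ATPase and 0.02 for non-ATPase subunits, beside 0.02 over all genes. This comparison was added after the data were seen. The libraries left out held the lowest value of 17 (LacZ 1) and 9 (LacZ 2) of the 28 subunits and the highest of 17 (HectD3 4). The smaller differences there follow in part from that choice and are not a separate check. The 95% intervals of 24 of the 28 subunits held 0, and over all 28 the intervals ran from -0.12 to 0.64, with the top set by Psmd8 and 0.48 the highest bound without it.

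**Figure D2:**
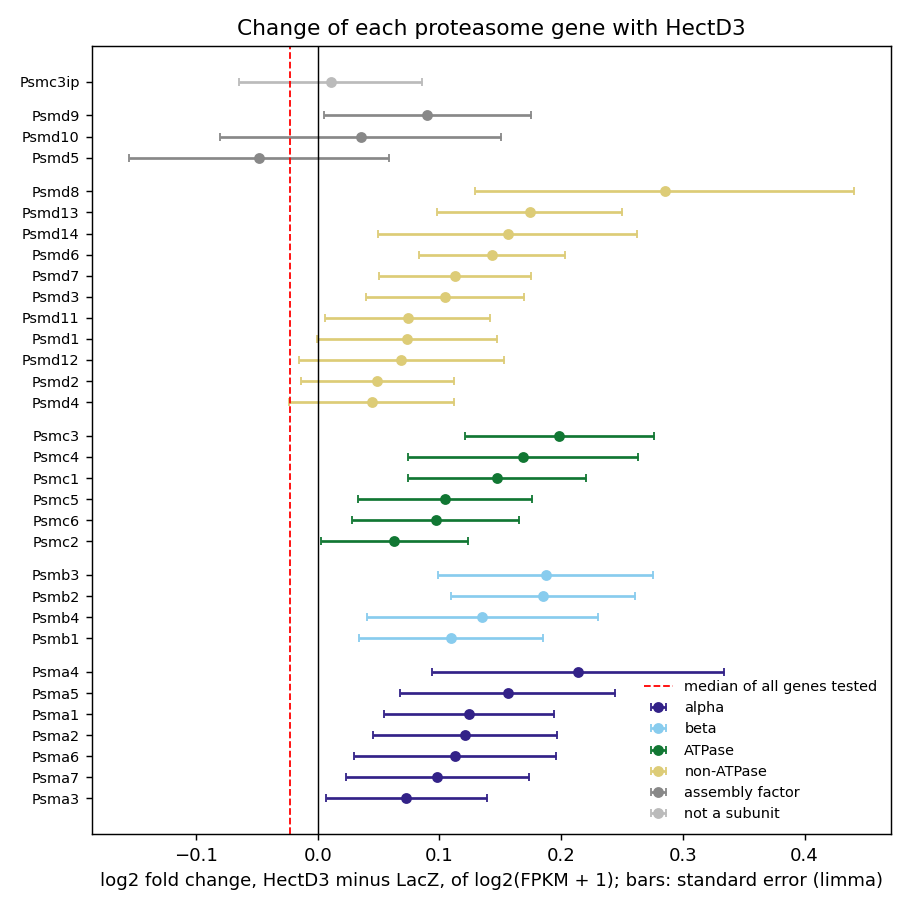
Difference of mean log2(FPKM + 1) between HectD3 and LacZ for each gene, with bars of 1 standard error from limma and 4 libraries a group. The red dashed line is the median of all genes tested at -0.02. With FPKM as deposited all 28 subunits lie right of 0, Psmd8 farthest at 0.29 with the widest bar, and Psmd5 alone lies left of 0 at -0.05.

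The alpha ring, whose subunits gate the barrel, had no member past either threshold, and its median log2 difference was 0.12 over 7 subunits. Psma4 had the largest difference of the ring, with 134.6, 137.7, 192.5 and 170.9 FPKM in LacZ 1 to 4 and 187.0, 169.5, 198.4 and 175.9 FPKM in HectD3 1 to 4. LacZ 1 and LacZ 2 were low while LacZ 3 and LacZ 4 lay among the HectD3 libraries, so the groups overlapped. Its means were 159 ± 27.8 and 183 ± 12.7 FPKM (SD, n = 4 each), and limma gave a log2 difference of 0.21 (95% interval -0.06 to 0.48, adjusted p = 0.723).

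Psma1, next to it in p, stood at 120.6, 130.5, 132.6 and 119.5 FPKM in LacZ 1 to 4 and at 135.9, 129.2, 135.7 and 148.1 FPKM in HectD3 1 to 4. Only HectD3 2 fell within the LacZ range. The log2 difference was 0.12 (95% interval -0.03 to 0.28, adjusted p = 0.723, limma). Psma7, the most abundant alpha subunit, was even in 7 libraries, at 187, 197, 200.1 and 187 FPKM in LacZ 1 to 4 and 201, 197 and 195 FPKM in HectD3 1 to 3, and reached 234 FPKM in HectD3 4. The least abundant, Psma3, had 64.9, 65.9, 68.1 and 67.2 FPKM in LacZ 1 to 4 and 67.3, 66.9, 70.5 and 75.7 FPKM in HectD3 1 to 4, again with the highest value in HectD3 4. Its log2 difference of 0.07 (adjusted p = 0.762) was the smallest of the ring. Of the other 3, Psma2 ranged from 173 to 224.5 FPKM, Psma6 from 171 to 224.5 FPKM and Psma5 from 103.5 to 139.7 FPKM over the 8 libraries, each lowest in LacZ 1 and highest in HectD3 4.

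The beta subunits Psmb1 to Psmb4 are structural members of the beta rings and do not cut proteins themselves. Psmb2 had 93.6, 98.1, 103 and 105 FPKM in LacZ 1 to 4 and 113, 104, 113 and 125 FPKM in HectD3 1 to 4. HectD3 2 alone lay inside the LacZ range. The means of 99.9 ± 5.16 and 114 ± 8.54 FPKM (SD, n = 4 each) differed by 0.19 on the log2 scale (95% interval 0.02 to 0.35, unadjusted p = 0.0355, adjusted p = 0.683, limma). Psmb2 lay at chr5:144701949-144734257 on the plus strand in the coordinates of the deposited table, and the sources used here do not name the genome build.

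Psmb3 stood at 115, 132, 132 and 126 FPKM in LacZ 1 to 4 and at 141, 134, 134 and 167 FPKM in HectD3 1 to 4. The groups did not overlap, but HectD3 2 and HectD3 3 were within a few FPKM of LacZ 2 and LacZ 3. The log2 difference was 0.19 (95% interval -0.01 to 0.39, adjusted p = 0.711, limma), and 10 named copies of Psmb3 in RefSeq leave its share of reads uncertain. Psmb4, the most abundant of all members, had 183.5, 202, 199.5 and 199.9 FPKM in LacZ 1 to 4 and 206, 197, 204.5 and 260.3 FPKM in HectD3 1 to 4. Apart from LacZ 1 and HectD3 4, the 6 libraries lay between 197 and 206 FPKM whatever the virus, and the log2 difference was 0.14 (adjusted p = 0.732). Psmb1 followed with 191 to 202 FPKM in LacZ and 193 to 239 FPKM in HectD3. The median difference of the 4 beta subunits was 0.16, and it was 0.08 without HectD3 4 and -7.79e-06 with summed FPKM as a covariate.

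The ATPase ring unfolds substrates, and Psmc3 is its most abundant transcript here and the member with the smallest p. Psmc3 had 131, 137.5, 162 and 152.5 FPKM in LacZ 1 to 4 and 167, 165, 167 and 169 FPKM in HectD3 1 to 4. The HectD3 libraries were within 5 FPKM of each other and all above the LacZ libraries, among which LacZ 1 and LacZ 2 were lowest. The means were 146 ± 14.1 and 167 ± 1.79 FPKM (SD, n = 4 each), a log2 difference of 0.20 (95% interval 0.02 to 0.37, unadjusted p = 0.0299, adjusted p = 0.677, limma). The gene lay at chr3:79876938-79882319 on the plus strand of the deposited coordinates.

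Psmc1, which helps to open the gate of the core, came second in p among the ATPases, with 115, 118, 137 and 128 FPKM in LacZ 1 to 4 and 137, 134, 137 and 143 FPKM in HectD3 1 to 4. LacZ 3 lay among the HectD3 libraries. Its log2 difference was 0.15 (SE 0.07, adjusted p = 0.719). Psmc4 was low in LacZ 1 and LacZ 2, at 72.4 and 79.1 FPKM, and between 91.0 and 98.0 FPKM in the other 6 libraries. Psmc6, the least abundant ATPase, had 59.4, 57.6, 60.8 and 62.5 FPKM in LacZ 1 to 4 and 60.9, 63.9, 62.8 and 69.9 FPKM in HectD3 1 to 4, with a log2 difference of 0.10 (adjusted p = 0.732). Psmc5 ranged from 78.4 to 94.5 FPKM. Psmc2 had the smallest SD of log2 values of all subunits, from 115 to 128 FPKM, with a log2 difference of 0.06. The median difference over the 6 ATPases was 0.13.

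The non-ATPase subunits had a median log2 difference of 0.11 over 11 genes. Psmd6, a subunit of the lid that covers the base, had 103, 104, 109 and 108 FPKM in LacZ 1 to 4 and 116, 115, 115 and 123.5 FPKM in HectD3 1 to 4. Every HectD3 library was above every LacZ library. The means of 106 ± 3.12 and 117 ± 4.08 FPKM (SD, n = 4 each) differed by 0.14 on the log2 scale (95% interval 0.01 to 0.28, unadjusted p = 0.0397, adjusted p = 0.687, limma). Psmd6 was also the most abundant non-ATPase subunit, at chr15:12407524-12416105 on the plus strand of the deposited coordinates.

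Psmd13, another lid subunit, had 91.6, 98.6, 111 and 106 FPKM in LacZ 1 to 4 and 114, 108, 117 and 119 FPKM in HectD3 1 to 4. HectD3 2 fell below LacZ 3, and the other HectD3 libraries were above all LacZ libraries. The log2 difference was 0.17 (SE 0.08, unadjusted p = 0.0472, adjusted p = 0.693, limma). Psmd8, also of the lid, had the largest difference and the widest spread of the 28 subunits. Its LacZ 1 to 4 values were 71.5, 73.9, 113.5 and 107 FPKM, and HectD3 1 to 4 had 113, 106, 119 and 99.7 FPKM. LacZ 3 and LacZ 4 thus matched the HectD3 libraries, and the log2 difference of 0.29 (95% interval -0.07 to 0.64, adjusted p = 0.723, limma) became 0.03 with LacZ 3 and 4 set against HectD3 1 to 3. That comparison leaves out LacZ 1 and LacZ 2, the lowest libraries of Psmd8.

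Psmd14 encodes the deubiquitinase that strips ubiquitin chains at the lid, with Psmd7 as its partner. Psmd14 had 40.9, 43.0, 52.7 and 54.4 FPKM in LacZ 1 to 4 and 55.7, 48.1, 54.4 and 53.8 FPKM in HectD3 1 to 4, so LacZ 1 and LacZ 2 were again low (log2 difference 0.16, adjusted p = 0.731). Psmd7 was narrower, at 79.5 to 85.7 FPKM in LacZ and 85.6 to 94.6 FPKM in HectD3. Among the large base subunits, Psmd2 had 94.4, 92.0, 103 and 101 FPKM in LacZ 1 to 4 and 102.5, 101, 101 and 98.9 FPKM in HectD3 1 to 4, with overlapping groups and a log2 difference of 0.05 (95% interval -0.09 to 0.19). Psmd1 ranged from 91.1 to 108 FPKM. The ubiquitin receptor Psmd4 had the smallest difference of all subunits, 0.04, with 77.8 to 88.1 FPKM in LacZ and 82.1 to 89.35 FPKM in HectD3. The lid subunits Psmd3 and Psmd12 ranged from 72.1 to 84.8 FPKM and from 78.3 to 96.0 FPKM. Psmd11, the least abundant subunit, had 46.2, 44.2, 49.3 and 49.9 FPKM in LacZ 1 to 4 and 50.6, 49.8, 51.0 and 48.2 FPKM in HectD3 1 to 4 (log2 difference 0.07, adjusted p = 0.765).

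The 3 assembly factors, which help to build the base of the regulatory particle and then leave it, had 2 positive differences and 1 negative difference. Psmd5 had 20.3, 16.1, 17.0 and 18.1 FPKM in LacZ 1 to 4 and 18.7, 15.2, 16.2 and 19.0 FPKM in HectD3 1 to 4, a log2 difference of -0.05 (SE 0.11, adjusted p = 0.907), which turned positive without LacZ 1 (0.012) or without HectD3 2 (0.008). Psmd9 had 18.7, 18.6, 20.2 and 20.7 FPKM in LacZ 1 to 4 and 21.2, 19.0, 20.5 and 23.0 FPKM in HectD3 1 to 4 (0.09, adjusted p = 0.768). Psmd10, the least abundant member, had 4.35, 4.37, 4.04 and 4.33 FPKM in LacZ 1 to 4 and 4.70, 4.3, 3.57 and 5.17 FPKM in HectD3 1 to 4, a difference of 0.04 (adjusted p = 0.942). Psmc3ip, which serves homologous recombination, had 23.0, 22.1, 21.4 and 20.1 FPKM in LacZ 1 to 4 and 22.4, 21.0, 22.3 and 21.4 FPKM in HectD3 1 to 4, a difference of 0.01 (adjusted p = 0.973). Whether these 4 genes differ from the subunits was not tested.

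**Figure D3:**
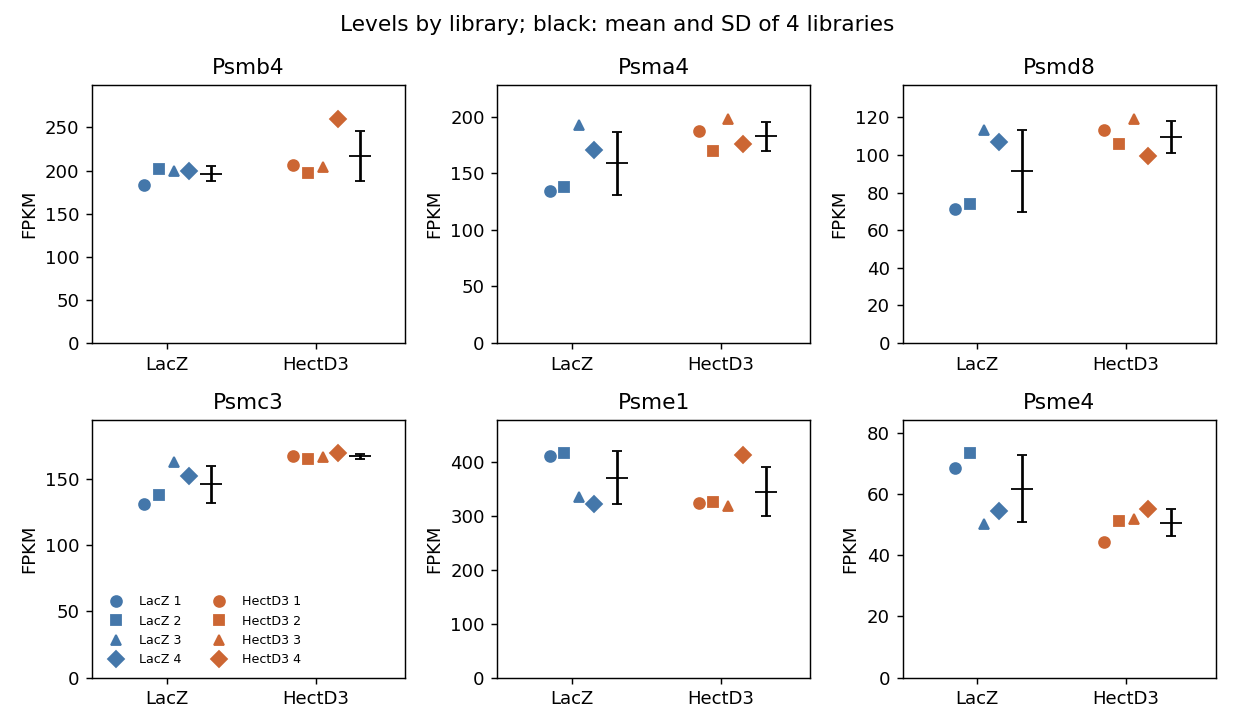
FPKM by library for Psmb4, Psma4, Psmd8, Psmc3 and the activators Psme1 and Psme4, with the linear axis starting at 0 and the mean and SD of 4 libraries in black. LacZ 1 and LacZ 2 (blue circle and square) are low in Psma4, Psmd8 and Psmc3 and high in Psme1 and Psme4, and HectD3 4 (orange diamond) stands apart in Psmb4 at 260.3 FPKM and in Psme1 at 411.4 FPKM.

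The core and the regulatory particle were then compared in each library. For each gene the mean of its 8 log2 values was subtracted, and the median of these deviations was taken over a class. Alpha subunits deviated by -0.12, -0.05, 0.00 and -0.02 in LacZ 1 to 4 and by 0.05, -0.03, 0.05 and 0.18 in HectD3 1 to 4. Beta subunits deviated by -0.17, -0.05, -0.04 and -0.04 in LacZ 1 to 4 and by 0.05, -0.05, 0.02 and 0.27 in HectD3 1 to 4. In HectD3 2 both core classes were therefore within the range of LacZ 2 to 4 or next to it, while LacZ 1 was the lowest and HectD3 4 the highest library of both.

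ATPases deviated by -0.14, -0.15, 0.06 and -0.02 in LacZ 1 to 4 and by 0.08, 0.04, 0.06 and 0.11 in HectD3 1 to 4. The non-ATPase subunits deviated by -0.11, -0.13, 0.05 and 0.03 in LacZ 1 to 4 and by 0.09, 0.01, 0.06 and 0.01 in HectD3 1 to 4. For the regulatory particle, LacZ 1 and LacZ 2 were both low, and both classes lay between -0.02 and 0.11 in the other 6 libraries. These deviations use FPKM as deposited, and HectD3 4 had the largest library sum. As a share of all FPKM, the regulatory subunits held 0.262% in LacZ 1 and in LacZ 2 and 0.282% in HectD3 4. They held 0.292% to 0.299% in the remaining libraries. The core subunits held 0.338% in HectD3 4, the highest of all libraries. Of the 11 core subunits, 9 were lowest in LacZ 1 and 10 were highest in HectD3 4. Of the 17 regulatory subunits, 8 were lowest in LacZ 1 and 9 in LacZ 2, and the highest library was HectD3 4 for 7, HectD3 1 for 6, HectD3 3 for 3 and LacZ 3 for 1. The same libraries, LacZ 1, LacZ 2 and HectD3 4, stood apart over all genes, and their part in these patterns was not tested.

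**Figure D4:**
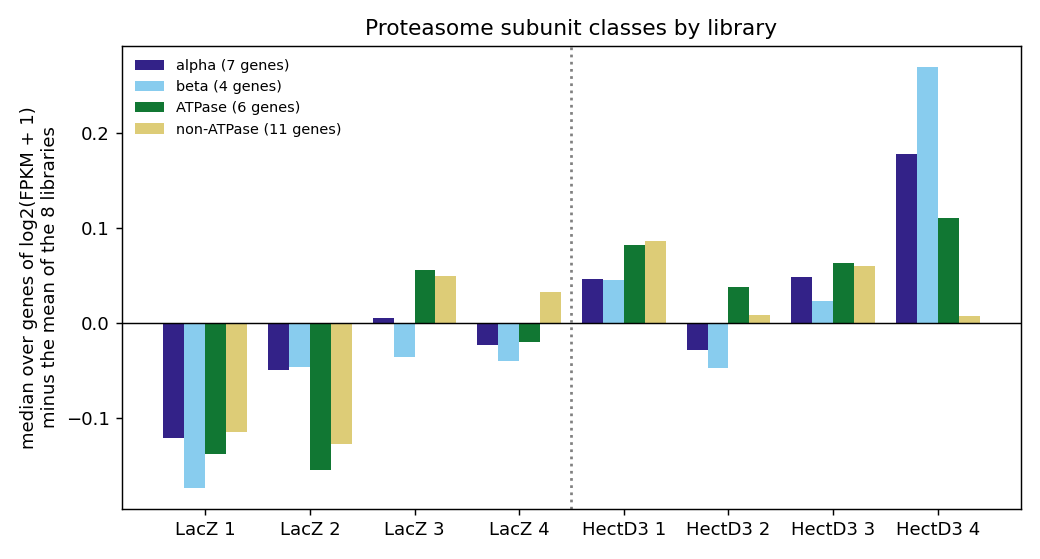
Median over the genes of a class of log2(FPKM + 1) minus the gene's mean of 8 libraries, for alpha (7 genes), beta (4), ATPase (6) and non-ATPase subunits (11) in each library, with a dotted line between LacZ and HectD3. All classes are below 0 in LacZ 1 and LacZ 2, and HectD3 4 has the highest alpha and beta bars (0.18 and 0.27) beside a non-ATPase bar of 0.01.

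The balance of core to regulatory transcripts did not separate the groups when levels were summed. The summed FPKM of the 11 core subunits was 1539.0, 1640.0, 1725.0 and 1664.4 in LacZ 1 to 4 and 1776.3, 1666.6, 1779.0 and 2014.1 in HectD3 1 to 4. The 17 regulatory subunits summed to 1431.0, 1444.0, 1653.8 and 1603.8 FPKM in LacZ 1 to 4 and to 1699.6, 1624.4, 1682.9 and 1677.4 FPKM in HectD3 1 to 4. The log2 ratio of the sums was 0.10, 0.18, 0.06 and 0.05 in LacZ 1 to 4 and 0.06, 0.04, 0.08 and 0.26 in HectD3 1 to 4, with means of 0.10 ± 0.06 and 0.11 ± 0.10 (SD, n = 4 each). HectD3 4 and LacZ 2 had the largest core share, and the other 6 libraries lay between 0.04 and 0.10.

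Taken by class medians instead of sums, the core lay above the ATPases by 0.46, 0.53, 0.76 and 0.72 log2 units in LacZ 1 to 4 and by 0.76, 0.69, 0.79 and 0.68 in HectD3 1 to 4. The difference between the group means was 0.11 by medians and 0.00 by sums. By medians it was 0.06 without LacZ 1 and 0.003 with LacZ 3 and 4 set against HectD3 1 to 3. The second comparison leaves out LacZ 1 and LacZ 2, which had the lowest values. The core lay above the non-ATPase subunits by 0.75, 0.81, 0.95 and 0.88 in LacZ 1 to 4 and by 0.95, 0.97, 1.02 and 0.89 in HectD3 1 to 4, a difference between group means of 0.11 by medians and 0.02 by sums. The median core gene was Psma4 in every library except LacZ 3 and HectD3 3, where it was Psma6. The core medians thus follow the level of a single gene in most libraries, and Psma4 was low in LacZ 1 and LacZ 2. The ATPases lay above the non-ATPase subunits by 0.23 ± 0.07 in LacZ and 0.23 ± 0.04 in HectD3 (SD, n = 4 each). No p-value was computed for these scores, since the members are not replicates.

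As a share of all FPKM in a library, the 28 subunits held 0.543%, 0.559%, 0.60% and 0.595% in LacZ 1 to 4 and 0.612%, 0.593%, 0.607% and 0.620% in HectD3 1 to 4. LacZ 1 and LacZ 2 were again the lowest, and HectD3 2 fell below LacZ 3 and LacZ 4. The SD of log2 values over the 8 libraries had a median of 0.106 over the subunits, against 0.146 over the 1541 genes in the same range of levels and 0.190 over all genes tested, and 23 of the 28 subunits were below the median of genes in their range. The widest were Psmd8 (0.282) and Psma4 (0.209), and the narrowest Psmc2 (0.056) and Psmd2 (0.057).

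Transcripts could be told apart for Psmd1 and Psmd11, as the other 30 members had 1 transcript each. Psmd11-202 supplied most of Psmd11, with 20.3, 43.1, 48.6 and 48.6 FPKM in LacZ 1 to 4 and 48.8, 48.5, 50.8 and 47.75 FPKM in HectD3 1 to 4. Psmd11-201 supplied 25.9 FPKM in LacZ 1, which was 56.1% of the gene there, and 0.149 to 1.87 FPKM, or 0.293% to 3.69% of the gene, in the other 7 libraries. The sum over both transcripts in LacZ 1, 46.2 FPKM, was close to that of LacZ 2, 44.2 FPKM. Psmd1-202 was at or near 0 in 6 libraries, with 0.385 FPKM in HectD3 3 and 6.04 FPKM, or 6.04% of the gene, in HectD3 2. The authors' tools divided reads that fit both transcripts, and the part of that step in these splits was not tested.

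The catalytic beta subunits, which the symbol rule leaves out, were read beside the core. Of 7 named, 6 were in the table, and none passed the adjusted threshold. Their median difference was 0.09, and 0.06 without HectD3 4. The standard catalytic subunit Psmb6 had 134.7, 147.5, 160.1 and 147.1 FPKM in LacZ 1 to 4 and 167.3, 157.7, 177.8 and 176.1 FPKM in HectD3 1 to 4, with HectD3 2 alone below LacZ 3 (log2 difference 0.20, unadjusted p = 0.0222, adjusted p = 0.671, limma). Psmb5 and Psmb7, the other standard catalytic subunits, differed by 0.12 and 0.06. Psmb9, a subunit of the immunoproteasome that interferon induces, went the other way, with 26.8, 24.0, 27.9 and 25.2 FPKM in LacZ 1 to 4 and 20.5, 20.9, 16.2 and 24.6 FPKM in HectD3 1 to 4 (log2 difference -0.34, unadjusted p = 0.0204, adjusted p = 0.662, limma). Its immunoproteasome partners did not share 1 direction: Psmb10 differed by -0.24 and Psmb8, at 4.61 to 13.7 FPKM in LacZ and 10.0 to 17.6 FPKM in HectD3, by 0.53.

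Among alternative caps of the core, Psme1 and Psme4 were high in LacZ 1 and LacZ 2, where the regulatory particle was low. Psme3 went the other way, with its lowest values, 34.9 and 36.5 FPKM, in LacZ 1 and LacZ 2. Psme1, a subunit of the interferon-inducible activator, had 410.0, 415.2, 333.5 and 322.3 FPKM in LacZ 1 to 4 and 324.0, 324.3, 317.4 and 411.4 FPKM in HectD3 1 to 4, high in LacZ 1, LacZ 2 and HectD3 4. Psme4, the single-chain activator, had 68.5, 73.3, 50.3 and 54.6 FPKM in LacZ 1 to 4 and 44.4, 51.2, 51.7 and 55.1 FPKM in HectD3 1 to 4, high in LacZ 1 and LacZ 2 (log2 difference -0.27, adjusted p = 0.714). Of the 5 activators and inhibitor, Psme3 alone had a positive difference (0.16), and the median was -0.10, ranging with 1 library left out from -0.192 (without HectD3 4) to -0.045 (without LacZ 2). Assembly chaperones of the core had a median of 0.05 over 5 genes, with 4 above 0 and none at an unadjusted p under 0.05. That median was -0.016 without HectD3 4, the other libraries left out in turn gave up to 0.114 (without HectD3 2), and TPM gave 0.001. Psmg2 and Psmg4, with the 2 largest differences of that list, stood at 0.17 and 0.20, and Pomp, which matures the beta ring, at 0.05 (adjusted p = 0.892).

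Factors associated with the proteasome had a median difference of 0.11 over the 7 found of 9 names, 5 of them above 0, and of 0.071 without LacZ 1. Adrm1, a ubiquitin receptor, had 73.6, 71.7, 85.3 and 84.9 FPKM in LacZ 1 to 4 and 91.5, 89.8, 88.9 and 83.5 FPKM in HectD3 1 to 4 (0.17, adjusted p = 0.714). LacZ 1 and LacZ 2 were low, as in Psmd8 and Psmd14. The thioredoxin Txnl1 was at an unadjusted p of 0.0438 (log2 difference 0.16, adjusted p = 0.691, limma). Akirin2, which brings proteasomes into the nucleus, was higher without overlap, at 39.8 to 42.4 FPKM in LacZ and 43.1 to 46.4 FPKM in HectD3 (0.11, adjusted p = 0.723).

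Regulators of subunit genes had a median of -0.02 over the 12 found of 13 names, 4 above 0 and 8 below. The median turned to 0.048 without LacZ 1, to 0.004 without HectD3 3 and to 0.015 with LacZ 3 and 4 set against HectD3 1 to 3, and with 1 library left out it ranged down to -0.08 (without LacZ 3). Nfe2l1 had 98.1, 94.5, 70.3 and 73.6 FPKM in LacZ 1 to 4 and 74.2, 89.3, 86.4 and 79.1 FPKM in HectD3 1 to 4 (log2 difference -0.02, adjusted p = 0.968). It was highest in LacZ 1 and LacZ 2, the libraries in which the subunits were lowest. Ddi2, the protease that releases Nfe2l1 from the endoplasmic reticulum, had 7.36, 6.74, 6.51 and 5.31 FPKM in LacZ 1 to 4 and 5.02, 4.57, 5.18 and 5.10 FPKM in HectD3 1 to 4. Its groups did not overlap, and limma gave a log2 difference of -0.32 (unadjusted p = 0.0192, adjusted p = 0.662). Nfya, a subunit of NF-Y, was at 9.10 to 11.8 FPKM in LacZ and 7.55 to 9.28 FPKM in HectD3 (-0.21, adjusted p = 0.719).

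Shuttle factors and the Vcp complex, which bring ubiquitinated proteins to the proteasome, had 12 of 15 tested genes above 0 and a median of 0.05, which was 0.019 without LacZ 2 and turned to -0.003 under TPM, with none at an unadjusted p under 0.05. Nploc4, a cofactor of Vcp, had the smallest p of that list (log2 difference 0.17, adjusted p = 0.722), and the shuttle Ubqln1 followed (0.08, adjusted p = 0.745). Ubiquitin genes and ubiquitin-activating enzymes had a median of 0.09, 3 of 5 above 0, and of 0.037 to 0.119 with 1 library left out, lowest without HectD3 4. Rps27a, which encodes ubiquitin fused to a ribosomal protein, differed by 0.15 (adjusted p = 0.728).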

How the data were processed

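The 8 NRVCM libraries, 4 LacZ and 4 HectD3, were sequenced as RNA, with groups and numbers taken from the labels. Poly(A) RNA was sequenced from strand-specific libraries. Per the methods, the authors used cutadapt for adapters, HISAT2 for alignment, StringTie for abundance and Ballgown for FPKM. HISAT2 and StringTie also stand in the submitters' processing notes. Tool versions, build and annotation: not given in the sources used here. FPKM values were deposited for 15976 transcripts, with library sums of 546642 to 595172. No step worth 1 read was found in the low values (at most 2.88% of 72 or more transcripts had a common ratio between libraries), so read depth is unknown and no counting error is given. No library was a copy of another (correlation of log2 values 0.964 to 0.995).

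FPKM was summed per gene symbol, or per gene ID for the 51 transcripts with no symbol; 96 symbols hold several gene IDs. Genes averaging 0.5 FPKM or more entered limma 3.58.1 (R 4.3.3) with trend on log2(FPKM + 1), two-sided, with Benjamini-Hochberg adjustment over 12567 genes. Fold changes are on this scale and understate changes of low genes. FPKM are not counts, so no count model was used. The script was tested on simulated data. RefSeq names 34 copies of 13 members, whose share of reads is uncertain.

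Members and gene lists were chosen with earlier results of these data known. Full values were given for members with an unadjusted p under 0.05, the 2 smallest p of each class, the most and least abundant of each class, those without overlap and the 4 that are not subunits; Psmc4, Psmd2, Psmd8 and Psmd14 and the genes of other lists beyond the 2 smallest p were named after their values were seen. Alternatives were other pseudocounts, filters, scalings, fits and leaving out libraries. Leaving out the 3 libraries that stand apart, and classes by gene name alone, were added after seeing the data. The values of 1 further gene that the rule names are not reported here.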

Additional observations from a re-analysis of the deposited data

Results flagged for a closer look

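A library was marked where its gap to the nearest of the 4 in its group passed Dixon's critical value as a share of the range. This held for 9 of 86 groups tested, and chance marks about 5%. Psma7 stood at 234 FPKM in HectD3 4, with the other HectD3 libraries at 195 to 201 FPKM. Psmb4 reached 260.0 FPKM in HectD3 4, against 197 to 206 FPKM, and was lowest in LacZ 1, at 184 FPKM against 199 to 202 FPKM. The median deviation of the beta subunits was -0.174 in LacZ 1 and -0.0459 to -0.036 in the other LacZ libraries. Psmc2 was at 122 FPKM in LacZ 3 and at 115 FPKM in the other LacZ libraries. Psmd10 was at 4.04 FPKM in LacZ 3, against 4.33 to 4.37 FPKM. Among single transcripts, Psmd11-201 was at 25.9 FPKM in LacZ 1, against 0.744 to 1.24 FPKM. Psmd1-202 was at 6.04 FPKM in HectD3 2, against 0.0414 to 0.385 FPKM, and at 0.0417 FPKM in LacZ 2, with 0 in the other LacZ libraries.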

How the results depend on the processing

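No member passed the adjusted threshold under any of 21 alternatives, in which the lowest adjusted p of a member was 0.447. Of 671 pairs of a member and an alternative, 24 turned direction, over 14 members. The 4 members higher at an unadjusted p became 0 with TPM, quantile normalization, limma without trend, library weights or LacZ 3 and 4 against HectD3 1 to 3. They became 1 with median-ratio scaling or the linear model with the summed FPKM of each library. They ranged from 0 to 7 when 1 library was left out. The 3 without overlap became 1 with TPM and with median-ratio scaling and 3 to 12 with 1 library left out, a step that cannot lower this count. The replicate numbers did not pair the libraries (correlations of same-numbered deviations -0.373, -0.009, 0.338 and -0.613), and with a replicate block 0 members were higher at an unadjusted p. With summed FPKM in the model the alpha median was 0.000677 and the beta median -7.79e-06. In that model Psma3 (-0.012), Psma6 (-0.045), Psma7 (-0.027), Psmb1 (-0.027), Psmb4 (-0.051), Psmc2 (-0.002), Psmd9 (-0.023) and Psmd10 (-0.046) turned. Library weights gave an ATPase median of 0.0502 and turned Psmd12 (-0.018) and Psmd14 (-0.002). TPM turned Psmc3ip (-0.037), Psmd4 (-0.004), Psmd10 (-0.006) and the shuttle list (-0.003). LacZ 3 and 4 against HectD3 1 to 3 gave medians of 0.0253 (alpha), 0.0278 (ATPase), 0.0248 (non-ATPase), 0.062 (associated factors) and 0.000 (ubiquitin genes), turned the assembly chaperones (-0.002) and the regulators (0.015), and turned Psmd2 (-0.005), Psmd9 (-0.018), Psmd10 (-0.005), Psmd12 (-0.032) and Psmd14 (-0.025). With 1 library left out the shuttle median was 0.019 to 0.060, Psmc3ip ranged from -0.022 to 0.039, Psmd10 from -0.028 to 0.115 and Psmd5 from -0.095 to 0.012. By sums, the core minus non-ATPase difference was 0.017. The causes were not tested. Depth is unknown, so it cannot be said which differences it limits.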
